A study of Mus musculus with 6 samples.

Results

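The insulin-like growth factor (IGF) system was described in mammary tumors of mice through 10 genes, namely the ligands Igf1 and Igf2, the receptors Igf1r and Insr, and the binding proteins Igfbp2, Igfbp3, Igfbp4, Igfbp5, Igfbp6 and Igfbp7. All 10 were measured among 12393 genes, by 23 of 20380 probe sets that the platform annotation pairs with a single gene. The genes were chosen by family, with earlier results of these arrays known, and each gene's probe set was chosen by its mean level over all 6 arrays, the brightest being kept, so these mean levels are a description of the choice and were not tested. The vehicle group had 3 tumor samples, and the drug group had 3 tumor samples from mice given VX680, miltefosine and WP1066 together, with treatment of 21 days in both. VX680 inhibits Aurora kinases, miltefosine is a lipid analog, and WP1066 inhibits JAK2 and STAT3 signalling. Strain, genotype, age, tumor model, doses and the number of animals behind the samples are not given in the labels. Each sample was 1 Affymetrix array of total RNA, so the number of arrays limits the precision. Replicate numbers follow the order in which the samples of each group are listed and pair no arrays between the groups. Nothing in the labels says that the samples of a group are separate animals, and the p-values then rest on a spread that may not be one between animals.

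IGF ligands are secreted peptides that bind the tyrosine kinase receptor encoded by Igf1r and, less strongly, the insulin receptor encoded by Insr, from which insulin receptor substrates pass the signal on to the PI3K-AKT and MAPK pathways. In tissue most of the ligand is held by IGF binding proteins, which can keep it from the receptor or release it there after being cut by proteases. In the mammary gland stromal cells are a main source of ligand, and Igfbp5 is known for its rise during involution, when the epithelium regresses.

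Igfbp2 had a lower mean in the drug-treated tumors and Igf1r a slightly higher one, and these were the 2 members of the 10 whose groups did not overlap. Igfbp2 was 1.5-fold lower in the mean of the drug arrays, and Igf1r was 1.17-fold higher (n = 3 per group). The ligands, Insr and the other 5 binding proteins overlapped between the groups. Over all 12393 genes the groups did not overlap for 17.1%, with drug above in 7.73% and drug below in 9.37%, and the members' count of 2 of 10 is near that background. At limma's threshold of an adjusted p of 0.05, 0 of the 10 members and 0 of 12393 genes (0.0%) passed, and 2 of the 10 and 1275 of the 12393 genes (10.3%) had an unadjusted p under 0.05. The median difference of the 10 members was 0.04 on the log2 scale, with 5 means higher and 5 lower, against a median of -0.01 over all genes. The median size of the difference, sign left aside, was 0.17 for the members and 0.07 for all genes, and the median SE was 0.16 and 0.08. The members therefore differed more between the groups than the median gene, and they also varied more from array to array.

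**Figure D1:**
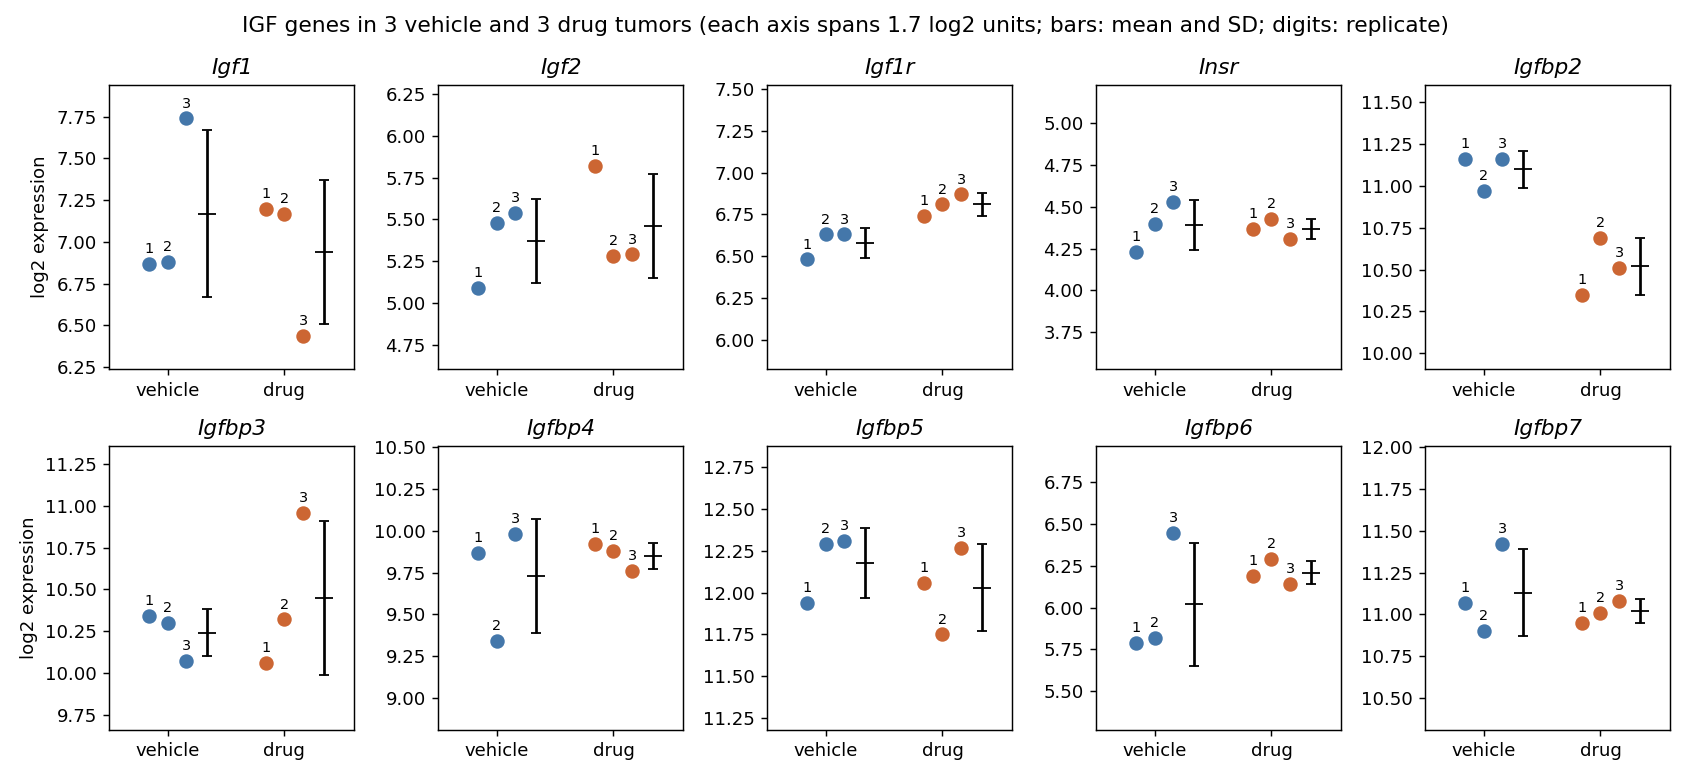
Log2 expression (vertical axis) of the 10 IGF genes in the 3 vehicle and the 3 drug arrays. Points are arrays with their replicate number, and the bars beside them are the mean and SD of the group. Each panel has its own axis of the same length, since levels of different probe sets are not comparable. The Igfbp2 panel has all drug points (10.35 to 10.69) below all vehicle points (10.97 to 11.16), the Igf1r panel has all drug points above, and the other panels overlap.

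Igfbp2 encodes a binding protein with a preference for the ligand encoded by Igf2, and is expressed in many epithelial tumors. Its log2 expression was 11.16, 10.97 and 11.16 in vehicle replicates 1, 2 and 3, and 10.35, 10.69 and 10.51 in drug replicates 1, 2 and 3. The highest drug array, drug replicate 2, lay 0.29 below the lowest vehicle array, vehicle replicate 2. The group means were 11.10 ± 0.11 in vehicle and 10.52 ± 0.17 in drug (SD, n = 3 each), a log2 difference of -0.58 ± 0.10 (SE) with a 95% interval from -0.83 to -0.34. The gene ranked 42 of 12393 by limma's p, with an unadjusted p of 0.000969 and an adjusted p of 0.267. Igfbp2 was measured by 1 probe set, so no other could be set beside it. Leaving out any 1 array gave log2 differences between -0.67 and -0.50, and leaving out both vehicle replicate 3 and drug replicate 1, the arrays richest in skeletal muscle transcripts, gave -0.47. In the arrays that remained, skeletal muscle transcripts were on average still higher in each vehicle array than in each drug array.

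Igf1r encodes the receptor for both IGF ligands. Its log2 expression was 6.48, 6.63 and 6.63 in the vehicle arrays and 6.74, 6.81 and 6.87 in the drug arrays. The lowest drug array lay 0.11 above the highest vehicle array, a narrow gap beside within-group SDs of 0.09 and 0.07. The log2 difference was 0.23 ± 0.07 (SE, n = 3 per group), with a 95% interval from 0.07 to 0.39 and a limma adjusted p of 0.39. The other probe set of Igf1r, with a mean of 4.37 in the low part of the scale, had a log2 difference of 0.14 and an interval from -0.06 to 0.34. In it vehicle replicate 3, at 4.43, lay above drug replicate 1, at 4.42, so its groups overlapped.

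The bases before the starts of these genes are shown because they were the members whose groups did not overlap. The sequences are the 250 bases before each start on the gene's strand, from the RefSeq annotation of GRCm38.p6, and capitals mark matches to GGGCGG, the GC box, or CACGTG, the E-box, on either strand. Igfbp2 has a pair of listed starts, with windows at chr1:72824230-72824479 and chr1:72825137-72825386, and Igf1r has its window at chr7:67952007-67952256, all on the plus strand.
Igfbp2 upstream start: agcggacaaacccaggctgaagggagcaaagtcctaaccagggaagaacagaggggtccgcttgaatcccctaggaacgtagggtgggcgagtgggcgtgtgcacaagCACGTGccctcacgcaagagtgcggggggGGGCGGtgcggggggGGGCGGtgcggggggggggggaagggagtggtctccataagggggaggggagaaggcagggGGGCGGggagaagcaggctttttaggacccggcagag
Igfbp2 downstream start: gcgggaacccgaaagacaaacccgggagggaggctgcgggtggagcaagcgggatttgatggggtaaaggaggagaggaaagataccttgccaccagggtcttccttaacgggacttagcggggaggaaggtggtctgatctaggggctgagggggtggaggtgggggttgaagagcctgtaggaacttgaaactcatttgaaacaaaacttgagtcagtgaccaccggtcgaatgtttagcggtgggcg
Igf1r: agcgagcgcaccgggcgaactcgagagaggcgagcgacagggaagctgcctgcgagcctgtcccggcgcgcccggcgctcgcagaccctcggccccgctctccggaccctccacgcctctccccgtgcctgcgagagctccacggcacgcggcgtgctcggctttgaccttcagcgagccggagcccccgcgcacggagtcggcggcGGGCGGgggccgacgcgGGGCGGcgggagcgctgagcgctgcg
Igfbp2 had 3 GC boxes and 1 E-box in the window of its upstream start and no match at its downstream start, and Igf1r had 2 GC boxes. Windows were given for 9 of the 10 members, 13 in all, and 5 of the 13 held a GC box, against 32.7% of 32851 mouse windows of the same length. The E-box was in 1 of the 13 windows and in 6.02% of all windows. Neither TTCNNNGAA, the STAT motif, nor TGTTTAC, a FOXO motif, had a match in the 13 windows, while 7.02% and 3.17% of all windows held them. These motifs were searched because WP1066 acts on STAT3 signalling and FOXO factors are regulated by AKT. A match or its lack describes the letters of these windows only.

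The ligands had means that differed by less than the spread between arrays. Igf1, the main growth-promoting ligand after birth, had log2 expression of 6.87, 6.88 and 7.74 in the vehicle arrays and 7.20, 7.17 and 6.44 in the drug arrays. Its highest and lowest arrays, vehicle replicate 3 and drug replicate 3, stood apart from the other 4, and the 1.30 between them was the widest span of the 10 members. The log2 difference was -0.23 ± 0.30 (SE, n = 3 per group; limma adjusted p = 0.845), with a 95% interval from -0.96 to 0.50. Without vehicle replicate 3 it was 0.06, and without drug replicate 3 it was 0.02. The 3 probe sets of Igf1 had differences between -0.24 and -0.07, vehicle replicate 3 was highest in all 3, and drug replicate 3 was lowest in 2 of them. Igf2, the imprinted ligand of fetal growth, had log2 expression of 5.09, 5.48 and 5.54 in vehicle and 5.82, 5.28 and 5.29 in drug arrays. Drug replicate 1 was the highest and vehicle replicate 1 the lowest, with the other 4 arrays between 5.28 and 5.54. Its log2 difference was 0.09 ± 0.19 (SE, n = 3 per group), and without drug replicate 1 it was -0.09. The second probe set of Igf2 had a mean of 3.24, near the low end of the scale.

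Insr, which encodes the insulin receptor, had log2 expression of 4.23, 4.40 and 4.53 in vehicle and 4.37, 4.43 and 4.31 in drug arrays. All 3 drug values lay within the vehicle range. Its log2 difference was -0.02, with a 95% interval from -0.22 to 0.19, while its other probe set gave 0.17, from -0.10 to 0.44. The probe sets had means of 4.38 and 4.35, low on the scale, and differences of opposite sign, so no direction is given for Insr.

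Among the binding proteins other than Igfbp2, each of the 5 had a 95% interval that held 0. Igfbp3, which carries most of the circulating ligand, had log2 expression of 10.34, 10.30 and 10.07 in vehicle and 10.06, 10.32 and 10.96 in drug arrays. Drug replicate 3 lay above every other array, and without it the difference went from 0.21 ± 0.23 (SE, n = 3 per group) to -0.05. Igfbp5, the binding protein known from involution, had log2 expression of 11.94, 12.29 and 12.31 in vehicle and 12.06, 11.75 and 12.27 in drug arrays. Its log2 difference was -0.15, with an interval from -0.54 to 0.23, and its second probe set gave -0.14. Drug replicate 2 was lowest in both probe sets. Over the arrays left out in turn the difference of Igfbp5 ranged from -0.28 to -0.01, the latter without drug replicate 2.

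Igfbp4, whose protein is a substrate of the protease encoded by Pappa, had log2 expression of 9.87, 9.34 and 9.98 in vehicle and 9.92, 9.88 and 9.76 in drug arrays. Vehicle replicate 2 was the lowest array in all 6 of its probe sets, and the drug arrays lay close together. The 6 probe sets had log2 differences between 0.06 and 0.27, all higher in drug, but without vehicle replicate 2 the difference of the probe set used was -0.07. Igfbp6, a binding protein selective for the ligand of Igf2, had log2 expression of 5.79, 5.82 and 6.45 in vehicle and 6.19, 6.29 and 6.14 in drug arrays. Vehicle replicate 3 lay above all drug arrays, and the other vehicle arrays lay below them. The log2 difference was 0.19 ± 0.18 (SE, n = 3 per group), with a limma adjusted p of 0.765. It was 0.40 ± 0.07 without vehicle replicate 3 (limma adjusted p = 0.304), 0.07 ± 0.19 without vehicle replicate 1 and 0.08 ± 0.19 without vehicle replicate 2, so its size rested on which vehicle arrays were kept. Igfbp7, a secreted protein of vessels and stroma that binds IGF ligands weakly, had log2 expression of 11.07, 10.90 and 11.42 in vehicle and 10.95, 11.01 and 11.08 in drug arrays. Its log2 difference was -0.11, from -0.43 to 0.20, and its other 2 probe sets, with means of 5.74 and 5.20, gave 0.07 and 0.06.

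The comparison of probe sets bears on how firmly each direction can be stated. Of the 7 members with several probe sets, 5 had probe sets of 1 sign, and Insr and Igfbp7 had both signs. Igfbp2, Igfbp3 and Igfbp6 had 1 probe set each.

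**Figure D2:**
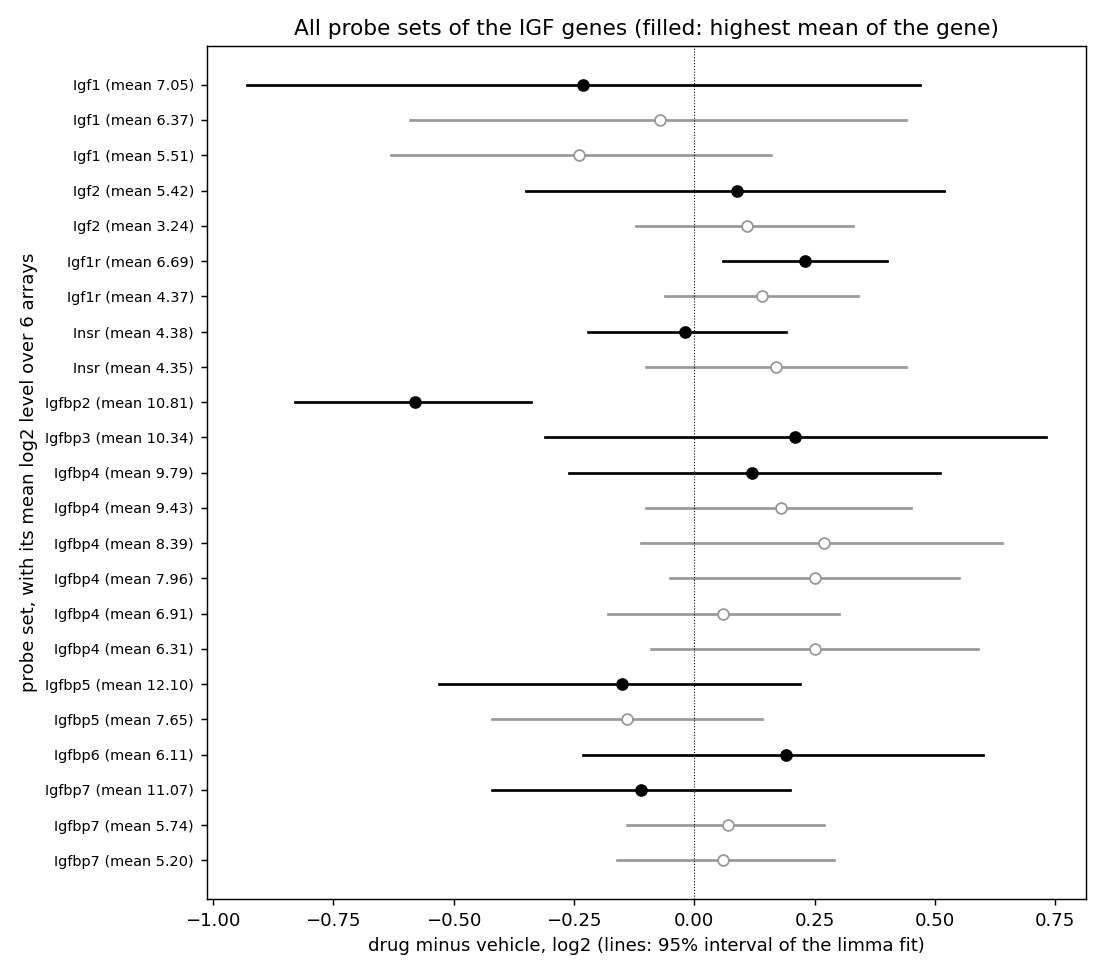
Drug minus vehicle difference on the log2 scale (horizontal axis) of all 23 probe sets of the 10 genes, with 95% intervals of a limma fit over all single-gene probe sets (n = 3 arrays per group). Filled points are the probe sets with the highest mean of their gene, and the means over the 6 arrays stand beside the names. The intervals of Igfbp2 and of the brighter Igf1r probe set leave out 0, and the other 21 hold it.

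Genes around the IGF system were taken from 2 lists, of factors that set ligand availability and of adaptors of the insulin and IGF receptors. Of 37 listed genes 32 were measured and 5 were not analysed here. By limma, 4 of the 32 had an unadjusted p under 0.05, 3 higher and 1 lower, against 5.37% higher and 4.91% lower over all genes, and 0 passed after adjustment over all genes. The groups did not overlap for 7 of the 32, 4 with drug above and 3 with drug below, a count near the background of 17.1% over all genes (7.73% above and 9.37% below). The median difference of the 32 genes was 0.02.

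On the ligand side, Stc1, which encodes a stanniocalcin able to inhibit the protease of Pappa, had log2 expression of 6.31, 6.44 and 6.47 in vehicle and 6.67, 6.70 and 7.11 in drug arrays. Every drug value exceeded every vehicle value, drug replicate 3 by the most. The log2 difference was 0.42 ± 0.13 (SE, n = 3 per group; limma adjusted p = 0.397), and without drug replicate 3 it was 0.28. The other probe set of Stc1, with a mean of 3.81 low on the scale, gave 0.17 with an interval from -0.01 to 0.36. Igf2r encodes the receptor that takes up the ligand of Igf2 for degradation. It had log2 expression of 9.72, 9.73 and 9.81 in vehicle and 9.89, 9.83 and 10.02 in drug arrays. The difference was 0.16 ± 0.07 (SE, n = 3 per group, limma adjusted p = 0.485), with the highest vehicle and lowest drug arrays close together. The unadjusted limma p of Igf2r, 0.0496, lay just under 0.05, and it ranged from 0.0334 to 0.13 over the arrays left out in turn. Its other probe set gave 0.10, with an interval from -0.03 to 0.24. Pappa itself, at 4.68 ± 0.11 and 4.76 ± 0.17 (SD, n = 3 each), overlapped between the groups, as did Igfbp1 and Igfals.

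Downstream of the receptors, Irs2, an insulin receptor substrate, had log2 expression of 5.82, 5.68 and 5.83 in vehicle and 6.21, 6.07 and 6.09 in drug arrays. The groups were apart by more than the spread within either, and differed by 0.34 ± 0.07 in log2 (SE, n = 3 per group), with a rank of 81 of 12393 by p and a limma adjusted p of 0.29. Grb14, an adaptor that inhibits the active insulin receptor, had log2 expression of 7.28, 7.17 and 7.18 in vehicle and 6.92, 6.90 and 6.79 in drug arrays. Each of its drug values was lower, with a mean change of -0.34 ± 0.06 in log2 (SE, n = 3 per group), a rank of 60 of 12393 and a limma adjusted p of 0.273. Irs2 and Grb14 were measured by 1 probe set each. Irs1, the other widely expressed substrate, had a difference of 0.03 with an interval from -0.67 to 0.73. The adaptors Shc1 and Grb2 had differences of 0.02 and 0.01, with intervals from -0.11 to 0.15 and from -0.13 to 0.14.

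**Figure D3:**
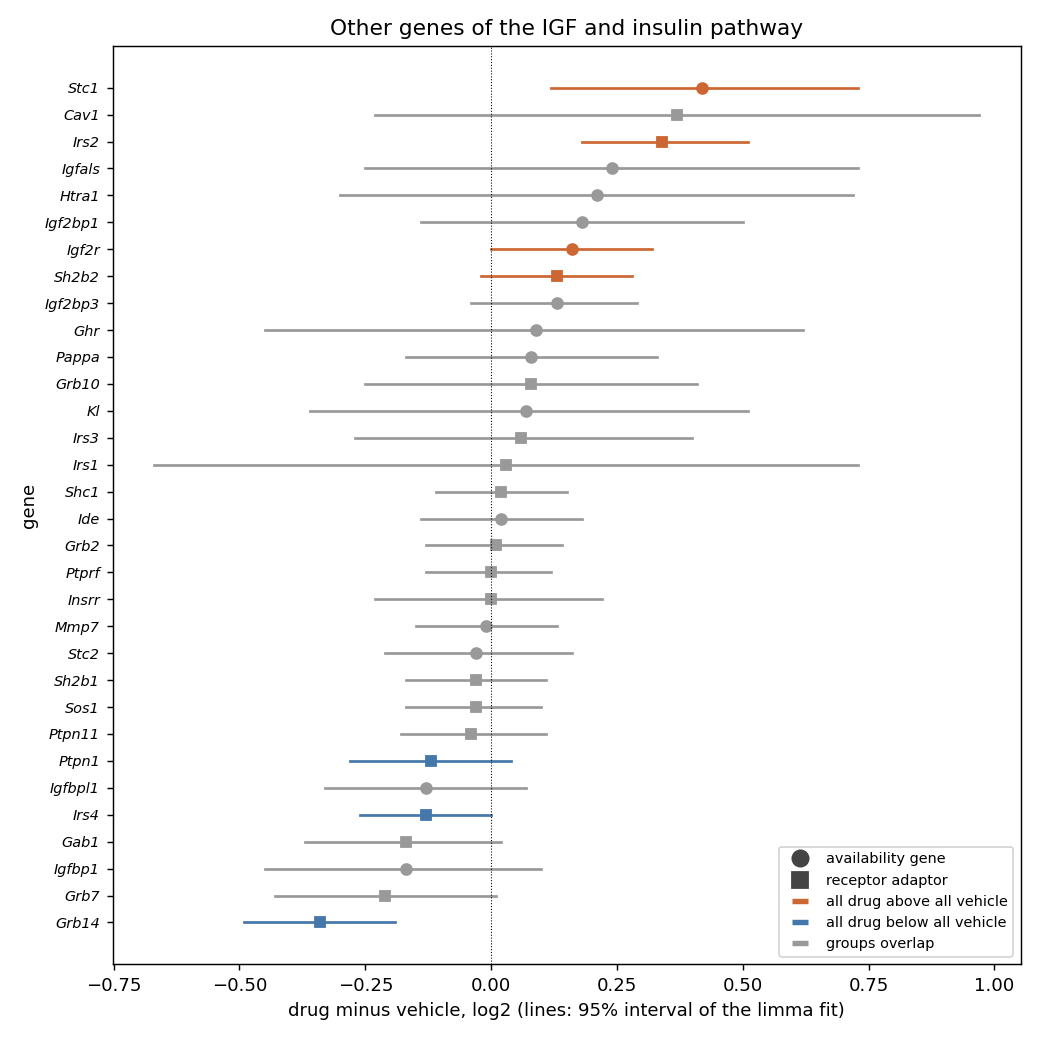
Drug minus vehicle difference on the log2 scale (horizontal axis) of 32 other genes of the IGF and insulin pathway, with 95% intervals of the limma fit (n = 3 arrays per group). Circles are genes of ligand availability and squares are receptor adaptors. Colors mark the 4 genes whose drug values were all higher and the 3 whose drug values were all lower than the vehicle values. Stc1 at 0.42 and Irs2 at 0.34 lie at the upper end and Grb14 at -0.34 at the lower end.

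Levels of cell type markers differed between the samples of both groups. Epithelial markers were high in every array, with Krt8 between 12.40 and 12.67 and Epcam between 11.88 and 12.00, while the hormone receptor genes Esr1 and Pgr lay between 2.69 and 3.21, near the lowest deposited value of 1.88. The mean of 19 skeletal muscle markers, each gene centred on its mean over the 6 arrays, was highest in vehicle replicate 3 (2.78) and drug replicate 1 (1.88). It was 0.73 and -0.76 in vehicle replicates 1 and 2, and -2.06 and -2.56 in drug replicates 2 and 3. Drug minus vehicle was -1.83, and all 19 markers had lower means in drug, though the groups overlapped for each. Without vehicle replicate 3 and drug replicate 1, both vehicle arrays left lay above both drug arrays left. The mean of 14 adipocyte markers was also highest in vehicle replicate 3, at 0.90, and that of 20 fibroblast and matrix markers ranged from -0.59 to 0.39 in vehicle and from 0.02 to 0.18 in drug. In the probe sets used, vehicle replicate 3 was the highest array for 6 of the 10 members, namely Igf1, Insr, Igfbp4, Igfbp5, Igfbp6 and Igfbp7. Over all probe sets it was highest in 3 of 3 for Igf1 and 2 of 3 for Igfbp7. For Insr and Igfbp5 it was highest in 1 of 2 each, and for Igfbp4 in 1 of 6. The share of all genes that were highest or lowest in a given array was not computed. Vehicle replicate 1 was the lowest array for 4 members, Igf2, Igf1r, Insr (1 of 2 probe sets) and Igfbp6, and its marker means lay between -0.16 and 0.73. Vehicle replicate 2 was the lowest array for Igfbp4 in all 6 probe sets and for Igfbp7 in 1 of 3. It had the lowest means of fibroblast (-0.59), adipocyte (-0.87), macrophage (-0.30), endothelial (-0.20) and pericyte markers (-0.20). With the skeletal muscle score as a covariate, itself lower on average in drug, the difference of Igf1 was 0.06 and that of Igfbp2 was -0.62. The adipocyte score as a covariate gave -0.27 for Igf1 and -0.6 for Igfbp2. In bulk tumors fewer cells of a type and less RNA per cell cannot be told apart.

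The mean of the basal mammary epithelium markers did not overlap between the groups, as was so for Igfbp2 and Igf1r. Igfbp2 and Igf1r were named for that separation, and the lists were chosen with earlier results known, so the likeness is a description. The centred mean of 12 basal markers ranged from -0.22 to -0.08 in vehicle and from 0.04 to 0.25 in drug arrays, and 6 of the 12, among them Krt5, Krt14 and Trp63, had drug values that all exceeded the vehicle values, where 7.73% of all genes did. The other 6 basal markers overlapped between the groups, and 4 of them, Oxtr, Cdh3, Egfr and Itga6, had slightly lower means in drug, with log2 differences between -0.08 and -0.03. The centred mean of 15 luminal markers overlapped, from -0.05 to 0.08 in vehicle and from -0.11 to 0.07 in drug arrays. Of the 15 luminal markers 10 had higher and 5 had lower means in drug. The groups did not overlap for 3 of the 15, against 17.1% of all genes. In Elf5 and Pgr the drug values were higher, with log2 differences of 0.14 and 0.11. Foxa1, a luminal transcription factor, was the third and differed by -1.20 ± 0.22 in log2 (SE, n = 3 per group, limma adjusted p = 0.273). Its drug values of 4.74 to 5.52 lay below its vehicle values of 6.11 to 6.60. The part of basal or luminal cells in the lower Igfbp2 and higher Igf1r means was not tested.

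**Figure D4:**
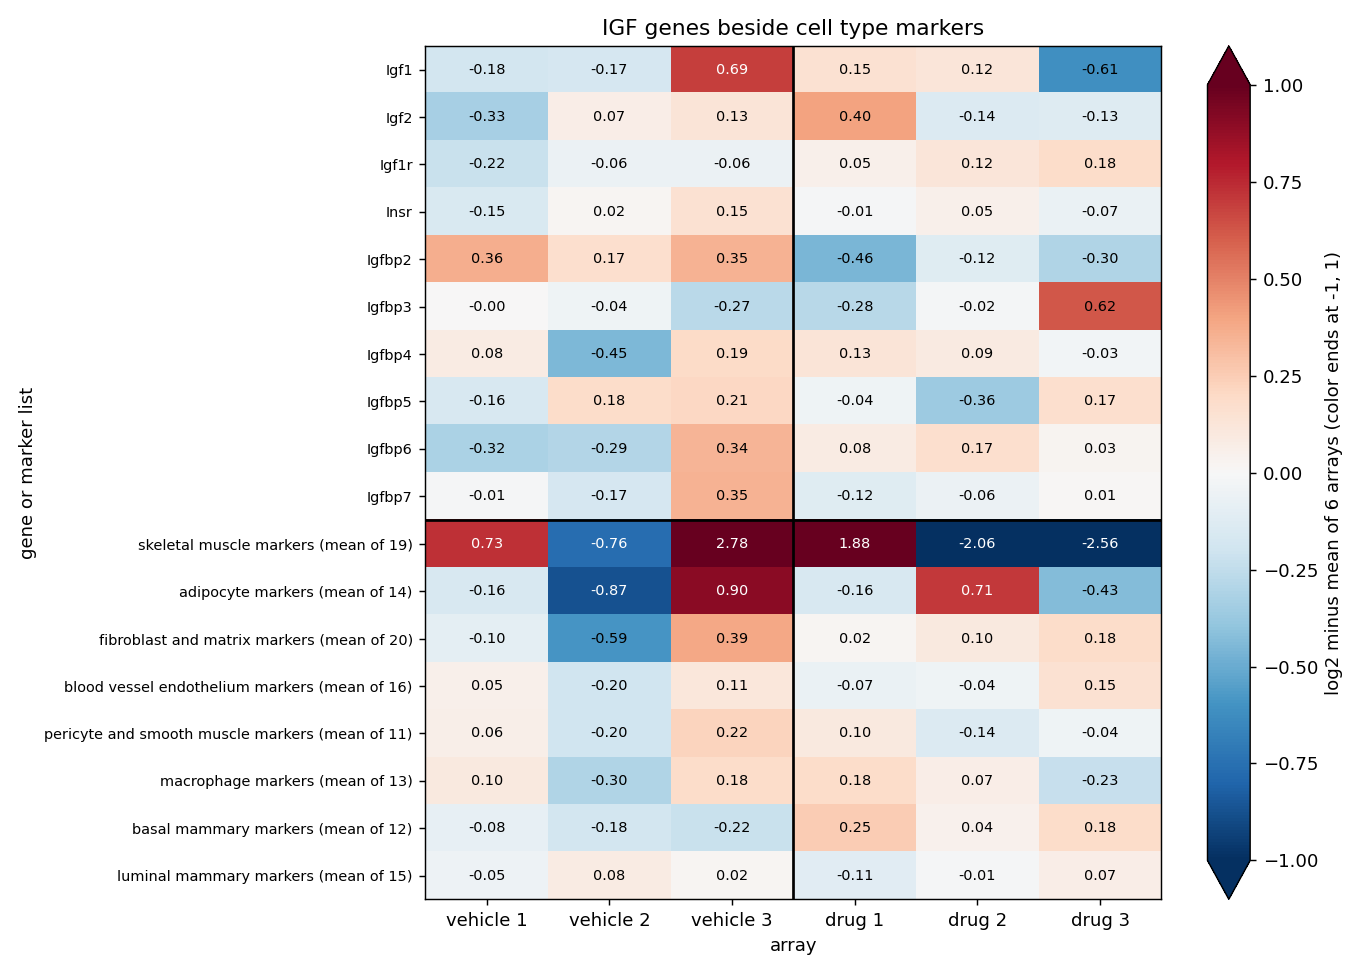
Log2 expression of the 10 IGF genes (upper rows) and mean of each cell type marker list (lower rows), both centred on the mean over the 6 arrays, in each array (columns). Colors end at -1 and 1, and the printed values give the full size. Igfbp2 is above its mean in the 3 vehicle arrays (0.17 to 0.36) and below it in the 3 drug arrays (-0.46 to -0.12), basal markers show the reverse, and Igf1 is highest in vehicle replicate 3, the array richest in muscle and fat markers.

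Igf1 was the 1 member that spanned over 1 on the log2 scale, so genes of a similar pattern were looked for with it. Among 12037 genes, those with the smallest root mean square difference from Igf1 over the 6 arrays, after centring each gene, were Sfrp4 at 0.12, Tmem38a at 0.127 and Phka1 at 0.16. Sfrp4 encodes a secreted Wnt antagonist, Tmem38a a cation channel of the sarcoplasmic reticulum and Phka1 a subunit of muscle phosphorylase kinase. Sfrp4 had log2 expression of 5.83, 5.59 and 6.80 in vehicle and 6.20, 6.12 and 5.50 in drug arrays, with vehicle replicate 3 highest and drug replicate 3 lowest, as in Igf1. These 6 arrays share their RNA between the genes compared, and the likeness is a description.

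Igfbp2 and Igf1r kept their direction under the alternatives run. Their groups did not overlap with all 6 arrays, so leaving arrays out could change the size of the difference but not its sign. Igfbp2 had a difference between -0.67 and -0.47 under 15 alternatives, with limma adjusted p from 0.126 to 0.507, and Igf1r between 0.14 and 0.29 under 16, with adjusted p from 0.296 to 0.655, the lowest difference being that of its other probe set. Igf1 and Igfbp4 changed sign when certain single arrays were left out, and the difference of Igfbp6, 0.19 with all arrays, ranged from 0.07 to 0.40 over the arrays left out in turn and came to 0.41 without both muscle-rich arrays.

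**Figure D5:**
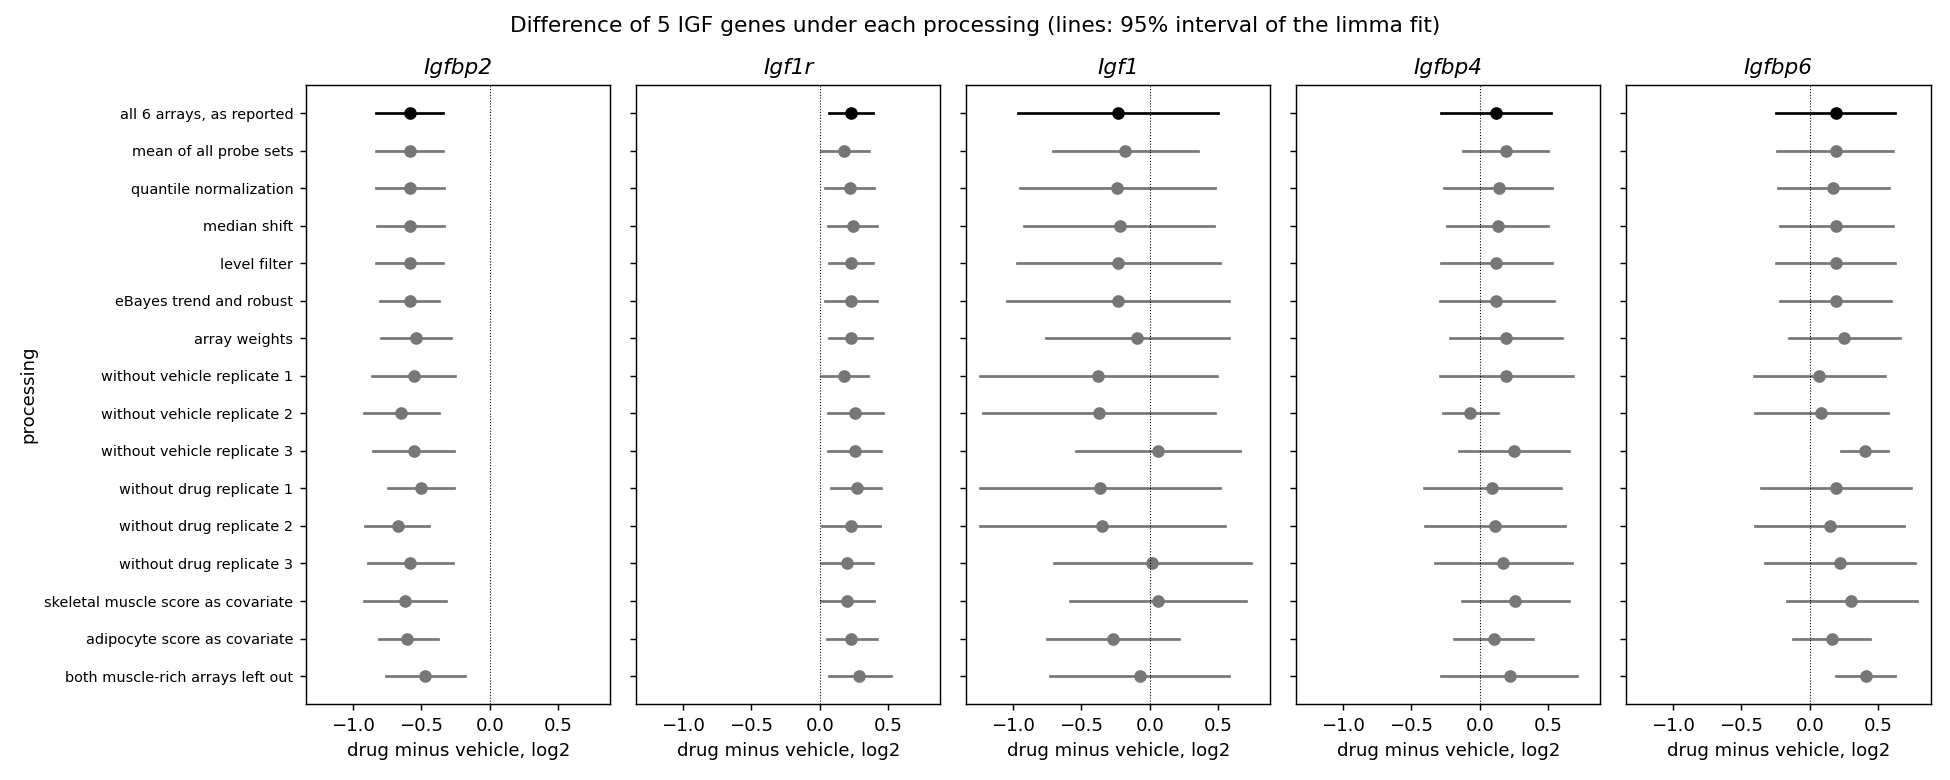
Drug minus vehicle difference on the log2 scale (horizontal axes) of Igfbp2, Igf1r, Igf1, Igfbp4 and Igfbp6 under each processing (rows), with 95% intervals of the limma fit. The black points are the values reported from all 6 arrays. Igfbp2 stays below 0 and Igf1r above 0 in each row plotted, with intervals that leave out 0. The dimmer probe set of Igf1r, whose interval from -0.06 to 0.34 holds 0, is not among the rows, and the intervals of Igf1 and Igfbp4 hold 0 in every row.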

How the data were processed

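The authors deposited a table of log2 expression for 22690 probe sets, made with Affymetrix Expression Console per the submitters' processing notes. How it summarised and normalized the arrays is not given in the sources used here. A log2 scale was read from the deposited values (1.88 to 14.14), and array medians of 6.70 to 6.73 point to values already equalised between arrays, and such scaling can mask a shift common to most genes. No detection calls were used, so low values may be background.

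Names came from the 2016 platform annotation, which gave 20380 probe sets 1 symbol. Each of 12393 genes was represented by its brightest probe set on average over the arrays. Drug and vehicle were compared with limma 3.58.1 in R 4.3.3 (lmFit and default eBayes) without a filter or covariate. Its p-values were two-sided and adjusted by Benjamini-Hochberg across the 12393 genes, with a threshold of 0.05. The procedure was also run on data simulated with independent noise and 200 changed genes, in 10 runs. It called 57.4% of log2 changes of 0.5 and 88.4% of changes of 1, and 4.62% of its calls were false. The simulation held no variation shared between genes, which the marker lists show in these arrays. Its shares therefore describe the simulated setting, not how many real changes would be called here, where 0 of 12393 genes passed. The members and lists were chosen with earlier results of these data known. All members are named, with pathway genes at an unadjusted p under 0.05 and, for members spanning over 1, the 3 most similar genes. Irs1, Pappa, marker genes and other pathway genes given by value were chosen after their values were seen. Alternatives were other probe sets, normalizations, a level filter of 5, variance settings, array weights, arrays left out and marker scores as covariates. Figures used matplotlib 3.10.9.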

Additional observations from a re-analysis of the deposited data

How the results depend on the processing

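With limma, 0 genes passed the adjusted p of 0.05 in the alternatives run, except 3 genes without drug replicate 2 (0 to 3 over the 6 arrays left out in turn), and 22 genes passed at an adjusted p of 0.25. The members with groups that did not overlap numbered 2 to 3 and those at an unadjusted p under 0.05 also 2 to 3 over the arrays left out, and the pathway genes at an unadjusted p under 0.05 numbered 3 to 6. Over all 12393 genes, 978 to 1252 had an unadjusted limma p under 0.05 with the same arrays left out. Groups of fewer arrays fail to overlap more readily, and the share of all genes that did so was not computed for these settings. The overlap of groups was not recomputed for covariates, weights or variance settings, which leave the values as they are. Igfbp2, Igf1r, Igfbp5, Igfbp6, Stc1, Igf2r, Irs2 and Grb14 kept their sign in the alternatives run. Apart from Igfbp5 and Igfbp6, these genes had groups that did not overlap, so leaving arrays out could not change their sign. Differences that changed sign on the log2 scale were as follows. Over the arrays left out in turn, Igf1 ranged from -0.38 to 0.06 (0.06 without vehicle replicate 3, 0.02 without drug replicate 3), Igf2 from -0.09 to 0.18 (-0.05 when vehicle replicate 1 and -0.09 when drug replicate 1 was left out), Insr from -0.09 to 0.06, Igfbp3 from -0.05 to 0.40, Igfbp4 from -0.07 to 0.25 and Igfbp7 from -0.23 to 0.03. After adjustment for the muscle score Igf1 gave 0.06, Insr 0.02 and Igfbp3 -0.01, and without both muscle-rich arrays Igf2 gave -0.0047, Insr 0.05 and Igfbp7 0.06. Leaving out those arrays did not even out muscle markers between the groups. With the mean of all probe sets Insr gave 0.08 and Igfbp7 0.01, with array weights Insr gave 0.01, and other probe sets gave 0.17 for Insr and 0.07 and 0.06 for Igfbp7. The cause was not tested. No paired analysis was possible because the labels give no replicate numbers that the groups share.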
